A study of Mus musculus with 4 samples.

Results

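The platelet-derived growth factor (PDGF) family was described in single-nucleus RNA-seq of mouse brain. Its members were taken by name: the ligand genes Pdgfa, Pdgfb, Pdgfc and Pdgfd and the receptor genes Pdgfra and Pdgfrb, 6 of the 31053 genes counted. Each of the 4 libraries held nuclei from the pooled brains of 5 male C57BL/6J mice, 8 weeks old, that had received an AAV9 vector into the cisterna magna at 4 weeks. AAV-VEGF-C carried mouse VEGF-C, and AAV-CTRL carried a secreted fragment of mouse VEGFR3 (Ig domains 4 to 7) that does not bind the ligand, so that the control animals also received a virus and a secreted protein. Cortex and striatum were taken from the same pool of mice within an AAV group, which gave 1 library for each region of each AAV group. Values of the 4 libraries are given throughout with cortex before striatum and, within a region, AAV-CTRL before AAV-VEGF-C. In GRCm38 coordinates, Pdgfa (ENSMUSG00000025856) spans 138976014 to 138997370 on chromosome 5 (minus strand), Pdgfb (ENSMUSG00000000489) 79995874 to 80014977 on chromosome 15 (minus), Pdgfc (ENSMUSG00000028019) 81036416 to 81214040 on chromosome 3 (plus), Pdgfd (ENSMUSG00000032006) 6168584 to 6378850 on chromosome 9 (plus) and Pdgfra (ENSMUSG00000029231) 75152292 to 75198215 on chromosome 5 (plus). Pdgfrb (ENSMUSG00000024620) lies on chromosome 18.

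PDGFs are secreted, disulphide-linked dimers that signal by pairing receptor tyrosine kinases. PDGF-A and PDGF-C bind PDGF receptor alpha, PDGF-B binds both receptors, and PDGF-D binds mainly PDGF receptor beta. PDGF-C and PDGF-D are secreted as latent proteins that need cleavage by proteases such as tissue and urokinase plasminogen activator. In the brain, endothelial PDGF-B retained on heparan sulphate recruits and maintains pericytes, which carry PDGF receptor beta, whereas PDGF-A drives proliferation of oligodendrocyte precursor cells (OPCs), for which PDGF receptor alpha is a defining marker. Fibroblasts of the meninges and of perivascular spaces are known to carry both receptors.

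The deposited libraries held 17168 to 23724 nuclei. After doublets had been left out, 16190, 18887, 21423 and 16436 nuclei with 57889623 to 69842846 unique molecular identifiers (UMIs, counted RNA molecules) per library were kept, with a median of 2126 to 2646 UMIs per nucleus. A level is given as CPM, the UMIs of a gene per 1000000 UMIs of all genes in the same nuclei and library. Because each group was 1 library, no test was possible between groups: parentheses after a level or a log2 ratio hold its 95% interval, which covers counting error only, and the AAV label cannot be told apart from the library. Nuclei were clustered without the 6 genes, and clusters were called endothelial-like, pericyte-like and so on from other markers. Nuclei called neuronal numbered 9631, 11410, 10087 and 8165. Of these, 776, 913, 5279 and 4374 were unresolved neurons, in clusters that met the marker rule of no class and were taken as neuronal from genes shared by neurons. Region labels did not match the striatal genes: Ppp1r1b, the marker DARPP-32 of striatal projection neurons, stood at 63.3, 76.0, 18.9 and 18.5 CPM, higher in the cortex-labelled libraries, while Slc17a7 of cortical excitatory neurons stood at 421, 462, 59.7 and 42.4 CPM. The labels are therefore used as names of libraries. Any pair of libraries shared between 76 and 118 barcodes, at most 0.658% of the smaller library.

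In whole libraries each of the 6 genes was counted at 21.7 to 58.0 CPM, from 1295 to 3857 UMIs per library. Among the ligands, Pdgfa stood at 34.5, 36.6, 43.1 and 48.1 CPM, Pdgfb at 40.3, 33.7, 23.2 and 24.8, Pdgfc at 40.8, 37.4, 33.2 and 27.5 and Pdgfd at 26.8, 23.3, 58.0 and 42.3. Of the receptors, Pdgfra stood at 23.6, 21.7, 31.8 and 32.9 CPM and Pdgfrb at 22.4, 23.1, 25.6 and 25.6. Pdgfrb was the most even across libraries and Pdgfd the least. Since 3′ UMI counts are not scaled to transcript length and capture differs between genes, levels are compared between nuclei and libraries for each gene, not between genes.

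Pdgfb, the ligand that endothelial cells present to pericytes, was highest in nuclei of the vessel wall. In endothelial-like nuclei (627, 681, 973 and 699 nuclei) it was counted at 369.6 (333 to 409), 290.1 (259 to 324), 267 (243 to 293) and 261 (236 to 288) CPM. Between 30.8 and 37.8% of these nuclei held a Pdgfb UMI at a median depth of 1361 to 1658 UMIs. In oligodendrocyte-like nuclei, which gave the background from free RNA, shares were 3.12, 2.24, 1.08 and 1.54% at median depths of 1611 to 2011 UMIs. With every nucleus thinned to 1000 UMIs the shares were 30.3, 24.4, 23.3 and 22.1% in endothelial-like and 1.84, 1.59, 0.570 and 0.780% in oligodendrocyte-like nuclei. The library of cortex AAV-CTRL was thus the highest of the 4 in endothelial-like nuclei, and the other 3 had overlapping intervals.

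Microglia-like nuclei, the resident macrophages of the brain, were the other clear holders of Pdgfb, at 164, 132, 156 and 139.6 CPM, with a UMI in 21.2, 17, 19.3 and 21.6% of nuclei (14.9, 11.6, 15.1 and 12.6% after thinning). These levels were 44.4, 45.4, 58.3 and 53.5% of the endothelial-like level of the same library. Each of the 15 endothelial markers was below that in the same nuclei, with a median of 2.30, 1.48, 2.44 and 2.43% of its own endothelial-like level and a maximum of 7.13 to 10.5% (Pecam1). Smooth muscle-like nuclei held Pdgfb at 222, 184, 235 and 156 CPM, or 60.1, 63.5, 88.0 and 59.8% of the endothelial-like level, but here the endothelial markers were as high, at a median of 57.5, 57.7, 66.3 and 52.1%. The smooth muscle-like cluster had a median of 6648.5 UMIs per nucleus, against 1267 to 1496 per library in pericyte-like nuclei, and 0.51% doublet calls. For pericyte-like nuclei Pdgfb was at 39.1, 50.7, 52.6 and 43.2 CPM, or 10.6, 17.5, 19.7 and 16.6% of the endothelial-like level beside 10.4, 13.3, 10.4 and 12.1% for the median endothelial marker. The part of endothelial RNA in these mural values was not tested beyond those markers.

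Excitatory neuron-like nuclei held Pdgfb at a low level that many nuclei added to. It stood at 30.5, 26.6, 18.3 and 36.3 CPM in 6371, 7456, 288 and 96 nuclei. After thinning 3.14, 2.51, 2.13 and 2.11% of them had a UMI, as point values above the oligodendrocyte-like share of the same library. The striatum-labelled shares came from few nuclei with a UMI, and their intervals were not compared with the oligodendrocyte-like ones. The Pdgfb level was 8.25, 9.16, 6.84 and 13.9% of the endothelial-like level, where the median endothelial marker stood at 0.441, 0.431, 0.716 and 0.332%. The highest of these markers, Tek, stood at 7.28, 7.49, 4.38 and 6.78%, close below Pdgfb in the cortex-labelled libraries. The part of endothelial RNA was not tested. Across all neuronal nuclei Pdgfb was at 25.3, 22.6, 11.3 and 11.2 CPM. Because neuronal nuclei were numerous and deep, they supplied 48.7, 52.7, 31.7 and 30.5% of all Pdgfb UMIs, against 16.4, 13.7, 28.9 and 25.8% from endothelial-like and 6.64, 5.83, 6.28 and 7.63% from microglia-like nuclei.

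**Figure D1:**
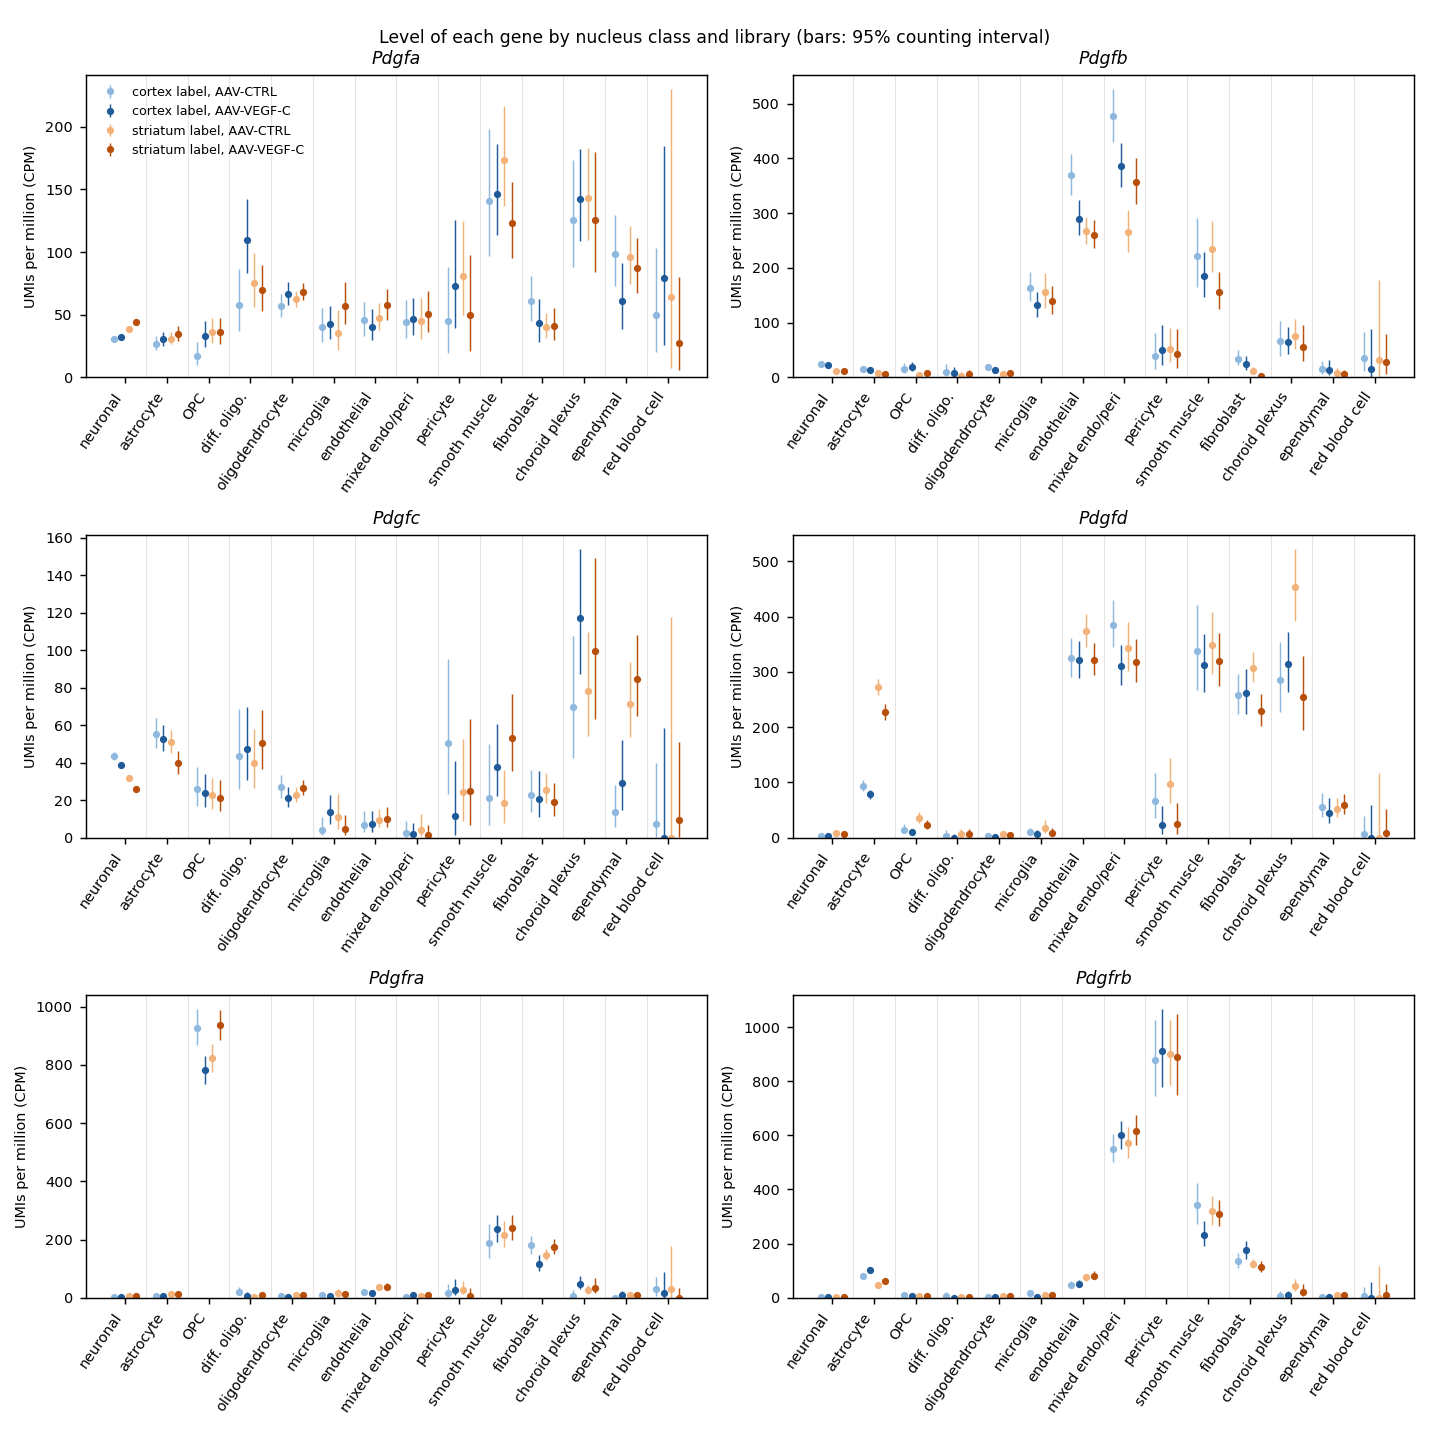
Level of each of the 6 genes (CPM) by class of nuclei in the 4 libraries, with 95% exact Poisson intervals as bars, over counting error only. Pdgfra stands apart in oligodendrocyte precursor-like nuclei (782 to 936 CPM) and Pdgfrb in pericyte-like nuclei (878 to 913 CPM), whereas Pdgfa varies less between classes.

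Pdgfd, the latent ligand of PDGF receptor beta, had more sources than Pdgfb. Endothelial-like nuclei held 325, 321, 374 and 322 CPM, and 32.4, 33.2, 34.7 and 35.8% of them had a UMI. Fibroblast-like nuclei (339, 276, 762 and 358 nuclei) held 258, 262, 308 and 229.7 CPM, and smooth muscle-like nuclei 338, 313, 349 and 319. The smooth muscle-like values were 104, 97.6, 93.2 and 99.3% of the endothelial-like level. Endothelial markers in the same nuclei had a median of 57.5, 57.7, 66.3 and 52.1%, and the part of endothelial RNA was not tested. Choroid plexus-like nuclei, the epithelium that makes cerebrospinal fluid, held 286, 315, 454 and 255 CPM. Over the 4 libraries together the levels of these classes lay close, at 342 (312 to 374) CPM in choroid plexus-like, 339 (323 to 355) in endothelial-like, 328 (301 to 357) in smooth muscle-like and 271 (255 to 287) in fibroblast-like nuclei, and the first 3 had overlapping intervals.

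Astrocyte-like nuclei carried Pdgfd at a level that separated the region labels, with 93.4 (83.6 to 104), 78.1 (70.1 to 86.8), 272 (259 to 286) and 227 (212 to 241) CPM and a UMI in 12.8, 11.3, 29.6 and 28.2% of 1909, 2352, 2942 and 2011 nuclei. After thinning the shares were 7.93, 7.29, 20.9 and 16%, beside 0.828, 0.448, 2.05 and 0.441% in microglia-like nuclei, the background here at median depths of 1427 to 1804 UMIs. Microglia-like nuclei stood at 9.53, 6.73, 17.7 and 8.35 CPM and neuronal nuclei at 4.66 CPM over the 4 libraries. In astrocyte-like nuclei Pdgfd reached 28.7, 24.3, 72.7 and 70.4% of the endothelial-like level, where the median endothelial marker stood at 0.946, 0.769, 1.74 and 0.931%. In fibroblast-like nuclei it reached 79.3, 81.6, 82.2 and 71.4%, beside a median of 6.45, 6.73, 3.95 and 2.68% for the endothelial markers and 41.9 to 47.2% for the highest of them, Cdh5. Astrocyte-like nuclei were the first source of Pdgfd UMIs in the striatum-labelled libraries and shared that place with endothelial-like nuclei in the cortex-labelled ones, with 21.2, 21.2, 38.7 and 36.9% against 21.6, 21.9, 16.3 and 18.6%.

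Pdgfa, the OPC mitogen, was spread widely. Its highest levels over the 4 libraries were 145 (127 to 165) CPM in smooth muscle-like, 136 (117 to 157) in choroid plexus-like and 88.1 (76.6 to 101) in ependymal-like nuclei, the last 2 being cells that line the ventricles. In the oligodendrocyte lineage it was at 57.9, 109.8, 75.5 and 69.5 CPM in differentiating oligodendrocyte-like nuclei (premyelinating cells) and at 56.7, 66.6, 62.6 and 68.2 in oligodendrocyte-like nuclei. In OPC-like nuclei, which carry its receptor, it was at 17.5, 33.4, 36.2 and 35.9 CPM. Neuronal nuclei held 30.8, 32.2, 38.4 and 44.4 CPM and, by their number, 69.3, 69.1, 58.3 and 62.5% of all Pdgfa UMIs. After thinning, 3.10, 3.24, 3.84 and 4.76% of neuronal nuclei had a Pdgfa UMI, against 5.96, 5.93, 5.79 and 6.44% of oligodendrocyte-like and 3.48, 4.93, 3.85 and 5.29% of microglia-like nuclei. The neuronal shares were below the microglia-like ones in each library, though by as little as 3.84 against 3.85%, so that Pdgfa over neuronal nuclei as a whole was not detected above this reference. Microglia-like nuclei were not the lowest holders of Pdgfa, at 44.1 CPM over the 4 libraries against 30.8 in astrocyte-like and 21.7 in striatal projection neuron-like nuclei, and how much of these levels was free RNA was not tested.

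Pdgfc, the latent ligand of PDGF receptor alpha, was lower in endothelial-like nuclei than in neuronal and astrocyte-like nuclei. It stood at 43.6, 38.8, 31.8 and 25.9 CPM in neuronal nuclei and at 55.4, 52.8, 51.1 and 39.6 in astrocyte-like nuclei, against 6.77, 7.21, 9.56 and 9.91 in endothelial-like and 4.23, 13.5, 11.2 and 4.77 in microglia-like nuclei. In the mural classes it was 35.4 (26.9 to 45.6) CPM in smooth muscle-like and 27.4 (17 to 42.0) in pericyte-like nuclei over the 4 libraries, not distinguishable from 35.4 (34.5 to 36.3) in neuronal nuclei. Thinned shares were 3.33, 2.94, 2.76 and 2.15% in neuronal, 5.00, 4.86, 4.87 and 3.57% in astrocyte-like and 0.331, 1.04, 0.769 and 0.661% in microglia-like nuclei, the first 2 above the third in each library. Neuronal nuclei supplied 83.0, 81.5, 62.6 and 63.8% of the Pdgfc UMIs while making up 59.5, 60.4, 47.1 and 49.7% of the nuclei, and astrocyte-like nuclei supplied 8.27, 8.96, 12.7 and 9.92%. Sustentacular-like nuclei of the olfactory epithelium had the highest level over the 4 libraries, 142 (109 to 182) CPM, but 182 of their 190 deposited nuclei came from striatum AAV-CTRL. Choroid plexus-like nuclei followed at 92.2 (77.0 to 109.7) CPM and olfactory ensheathing-like nuclei at 86.4 (56.5 to 127), with intervals that overlapped each other.

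**Figure D2:**
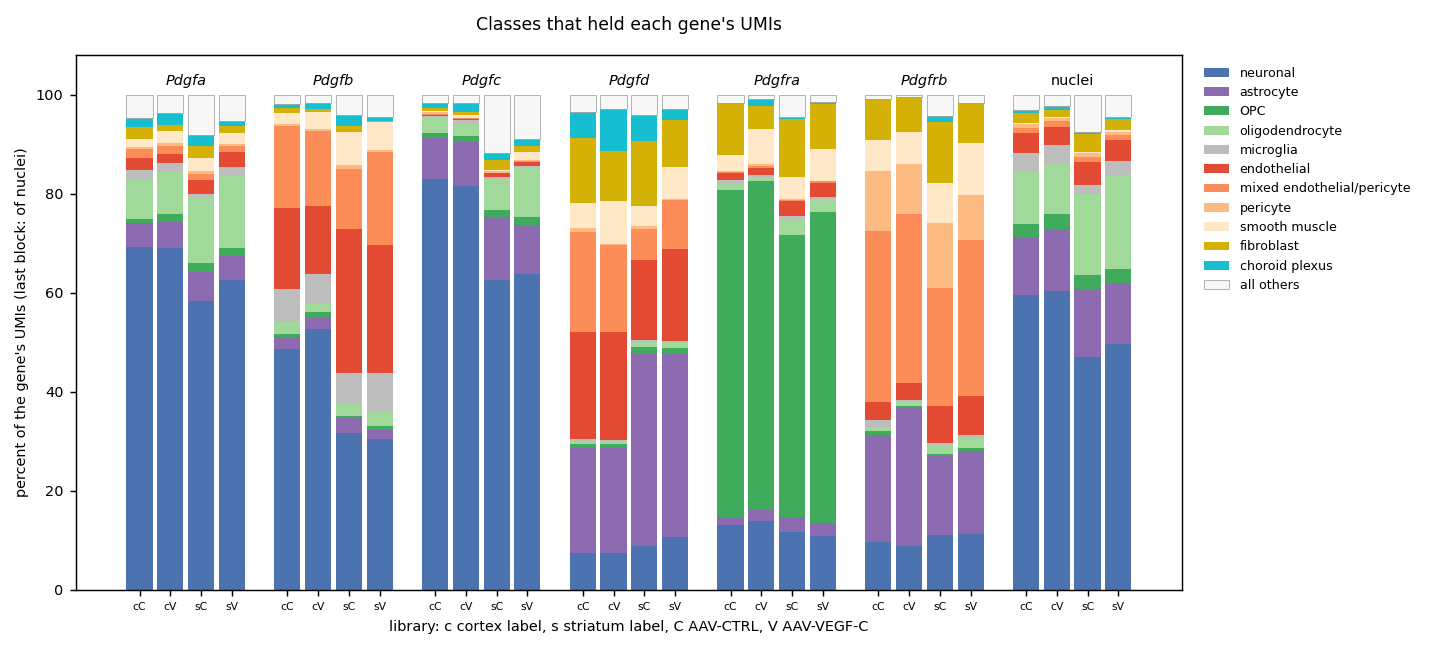
Percent of each gene's UMIs that came from each class of nuclei, stacked to 100% per library, for the 6 genes. By their number neuronal nuclei supply 58.3 to 69.3% of Pdgfa and 62.6 to 83.0% of Pdgfc. Oligodendrocyte precursor-like nuclei supply 56.9 to 66.5% of Pdgfra. After thinning to equal depth, the share of neuronal nuclei with a Pdgfa UMI was no higher than that of microglia-like nuclei. Without thinning it was 14.9% against 6.55% over all libraries together.

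Pdgfrb, the receptor that pericytes need for recruitment, was highest in pericyte-like nuclei (129, 121, 183 and 104 nuclei), where its level was 878 (746 to 1027), 913 (778 to 1065), 899 (784 to 1025) and 889 (750.0 to 1047) CPM. A UMI was present in 60.5, 62.0, 57.9 and 66.3% of them and in 0.588, 0.714, 0.856 and 1.06% of oligodendrocyte-like nuclei, the background at slightly higher depth, and thinned shares were 53.5, 55.1, 53.6 and 55.8% against 0.123, 0.529, 0.510 and 0.455%. The 4 pericyte-like values had overlapping intervals. Smooth muscle-like nuclei (33, 52, 54 and 56 nuclei) held 342, 233, 319 and 310.1 CPM and fibroblast-like nuclei 135, 176, 126 and 114. In the fibroblast-like nuclei this was 15.4, 19.2, 14.1 and 12.9% of the pericyte-like level, beside a median of 8.07, 4.19, 4.27 and 2.92% for the pericyte markers, whose highest was 17.6 to 32.1% (Vtn). In the smooth muscle-like nuclei Pdgfrb stood at 38.9, 25.5, 35.5 and 34.9% of the pericyte-like level. The pericyte markers had a median of 31.3, 30.9, 40.1 and 39.4% there, so that Pdgfrb was above it in cortex AAV-CTRL alone.

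A cluster of 170, 209, 205 and 173 nuclei led by the pericyte genes Vtn, Rgs5 and Abcc9 also carried endothelial markers in full, at a median of 122, 124, 115 and 116% of the endothelial-like level, and is called mixed endothelial and pericyte. Its median depth was 3317 UMIs, with 0.264% doublet calls. It held the ligand Pdgfb at 477, 386, 265 and 357 CPM, the ligand Pdgfd at 386, 311, 344 and 319 and the receptor Pdgfrb at 551, 599.6, 572 and 617. Droplets holding both cells cannot be told apart here from cells with both programs. Though near 1% of nuclei in each library, this cluster supplied 34.5, 34.1, 23.9 and 31.5% of the Pdgfrb UMIs, more than pericyte-like nuclei (12.1, 10.0, 13.0 and 9.07%).

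Among astrocyte-like nuclei the Pdgfrb level was 79.2 (70.2 to 89.1), 101 (92.2 to 111), 49.1 (43.4 to 55.3) and 62.3 (55.1 to 70.3) CPM, against 3.52, 4.30, 5.27 and 5.13 CPM in oligodendrocyte-like nuclei. They reached 9.02, 11.1, 5.46 and 7.01% of the pericyte-like level, above the median pericyte marker (2.11, 1.78, 2.93 and 1.75%) and below P2ry14, which stood at 31.1 to 39.9% of its own. Being numerous, they supplied 21.5, 27.8, 15.8 and 16.8% of the Pdgfrb UMIs. Endothelial-like nuclei held 47.4, 50.5, 75.2 and 81.9 CPM, 5.40, 5.52, 8.37 and 9.21% of the pericyte-like level, where the pericyte markers had a median of 8.02, 5.49, 8.94 and 11.1%. In those nuclei the receptor was therefore close to or below the median pericyte marker. OPC-like nuclei were at 6.68 and neuronal nuclei at 3.46 CPM over the 4 libraries.

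Pdgfra, the receptor of the OPC mitogen PDGF-A, was highest in OPC-like nuclei (434, 560, 581 and 490 nuclei), with levels of 928 (868 to 990.3), 782 (734 to 831), 822 (777 to 870.3) and 936 (886 to 989) CPM with a UMI in 82.3, 75.9, 80.0 and 84.7% of them. Thinned shares were 55.3, 51.5, 56.1 and 55.1%, against 0.662, 0.597, 2.05 and 0.881% in microglia-like nuclei. In the next stage, differentiating oligodendrocyte-like nuclei, it was at 19.3, 7.57, 4.44 and 10.6 CPM. Of the OPC-like nuclei, 3.23, 6.61, 7.06 and 7.76% had a UMI of both Pdgfra and its ligand gene Pdgfa. OPC-like nuclei supplied 66.2, 66.5, 56.9 and 62.7% of the Pdgfra UMIs from 2.68 to 2.98% of the nuclei.

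Outside the oligodendrocyte lineage Pdgfra was found in fibroblast-like nuclei, with levels of 180.0 (151 to 212), 117 (91.3 to 146), 147 (129.5 to 167) and 174 (150.2 to 201) CPM, with thinned shares of 15.9, 11.7, 13.6 and 16.5%. This was 19.4, 14.9, 17.9 and 18.6% of the OPC-like level, and each of the 13 OPC markers was below it, with medians of 3.44, 2.42, 2.85 and 2.93%. Both receptors were detected in the same nucleus in 9.44, 7.97, 5.91 and 9.50% of fibroblast-like nuclei and in 1.55, 1.65, 2.19 and 0.962% of pericyte-like nuclei. In pericyte-like nuclei Pdgfra was at 16.8, 28.2, 28.3 and 6.18 CPM, or 1.81, 3.61, 3.45 and 0.660% of the OPC-like level, beside OPC marker medians of 2.60, 3.00, 3.86 and 3.49%. Smooth muscle-like nuclei held 188, 235, 217 and 239 CPM, with fibroblast markers at a median of 49.6, 54.9, 30.8 and 42.7% of their fibroblast-like level, and Pdgfra itself at 104, 202, 147 and 137%. The highest fibroblast marker there, Col15a1, stood above Pdgfra at 346, 451, 415 and 327%, and the part of fibroblast RNA was not tested.

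Within classes, the genes differed between clusters. Fibroblast-like cluster A (1263 nuclei, led by Ranbp3l, Slc6a20a and Slc6a13) held Pdgfra at 239, 173, 193 and 254 CPM and cluster B (472 nuclei, led by Slc47a1 and Prg4) at 52.2, 31.9, 40.5 and 24.3. The log2 ratio of A over B was 2.20, 2.44, 2.25 and 3.38, each with an interval above 0. For Pdgfrb the ratios were 2.33, 1.87, 3.24 and 2.57, also above 0 in each library, with 181, 247, 172 and 161 CPM in A and 36.2, 67.8, 18.2 and 27.1 in B. Both receptors were thus concentrated in A. The ligand Pdgfc went the other way, at -2.10, -2.32, -1.79 and -1.5. For Pdgfd the ratio was 0.00 (-0.43 to 0.46) and 0.21 (-0.26 to 0.69) in the cortex-labelled and -0.29 (-0.56 to -0.02) and -0.60 (-0.97 to -0.22) in the striatum-labelled libraries, so that it was lower in A under the striatum label and not distinguishable under the cortex label.

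In endothelial-like nuclei the largest clusters C (1544 nuclei, nearly all striatum-labelled) and D (1195 nuclei, nearly all cortex-labelled) held Pdgfb at 316 (295 to 339) and 337 (310.3 to 365) CPM and Pdgfd at 356 (333 to 380.1) and 324 (298 to 352) over the 4 libraries. Within cortex AAV-CTRL, where 20 nuclei were in C, Pdgfb was 602 CPM in C and 376 in D, a log2 ratio of 0.68 (0.18 to 1.15). In cortex AAV-VEGF-C, with 21 nuclei in C, that ratio was 0.27 (-0.51 to 0.96). A venous cluster (141 nuclei, 6 of 6 venous markers counted) had less Pdgfb, 131 (107 to 158) CPM, and an arterial cluster (100 nuclei, 4 of 7 arterial markers) had 195 (136 to 269) CPM of Pdgfb but the highest Pdgfd, 562 (459 to 681), over the 4 libraries. Within libraries, the Pdgfd log2 ratio of C over the arterial cluster was -0.56 (-0.98 to -0.11) in striatum AAV-CTRL. In striatum AAV-VEGF-C it was -0.22 (-0.92 to 0.57), not distinguishable. Cortex-labelled libraries had 18 and 14 arterial nuclei, too few for such a ratio. The venous cluster carried Pdgfrb at 225, 94.4, 264 and 240.4 CPM. That was 25.6, 10.3, 29.4 and 27.0% of the pericyte-like level, where the pericyte markers had a median of 24.6, 9.36, 15.1 and 14.9%. The arterial cluster had 27.0 (8.78 to 63.1) CPM of Pdgfrb.

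**Figure D3:**
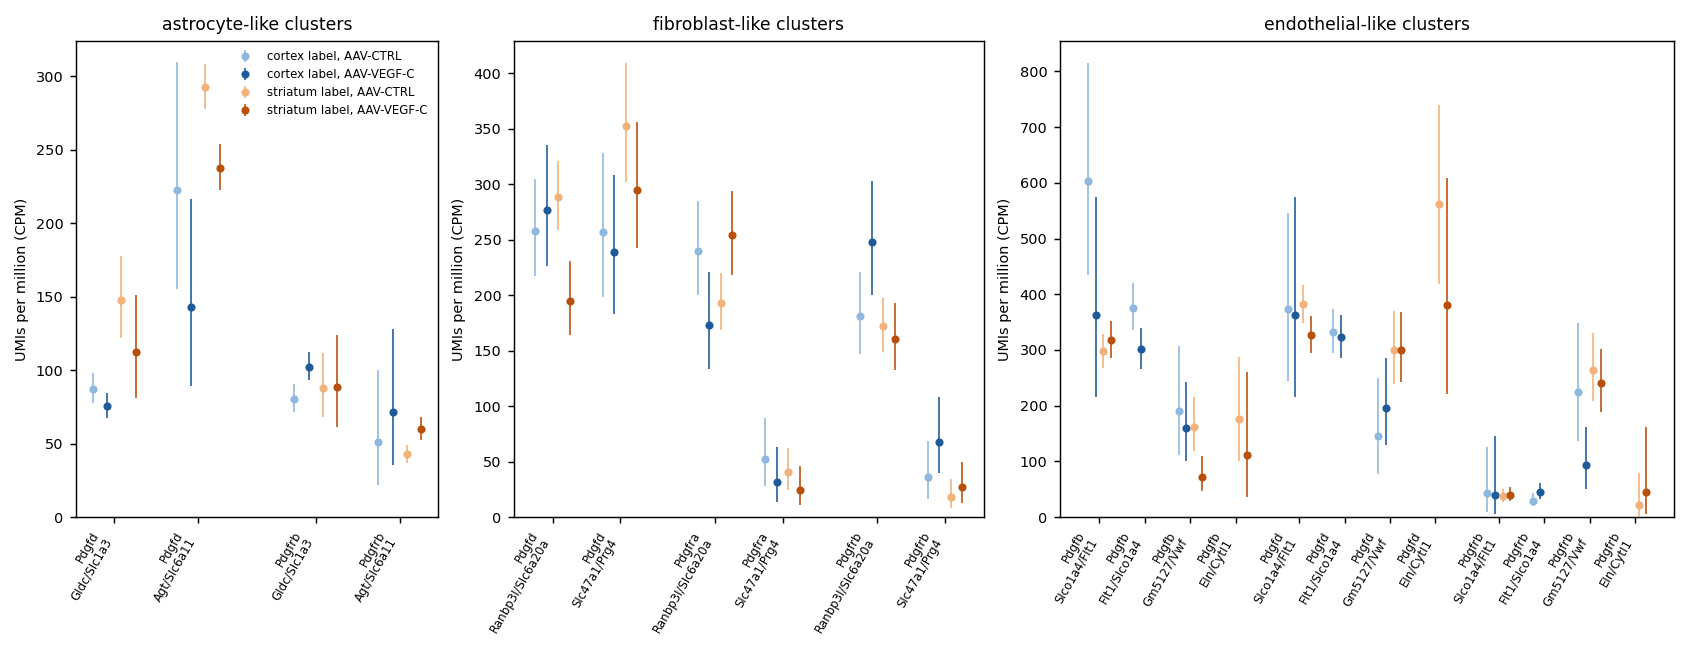
Levels (CPM) of PDGF genes in the clusters that make up the fibroblast-like, endothelial-like and astrocyte-like classes, by library, with 95% exact Poisson intervals as bars. Clusters are labelled by their leading genes (A is Ranbp3l/Slc6a20a, B is Slc47a1/Prg4, C is Slco1a4/Flt1 and D is Flt1/Slco1a4), and libraries with fewer than 20 nuclei in a cluster are not drawn. Pdgfra in fibroblast-like cluster A (173 to 254 CPM) lies above cluster B (24.3 to 52.2 CPM) in each library.

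Between AAV labels, none of the 6 genes reached a 1.5-fold ratio in whole libraries under either region label, where 2.44% of all genes did so under the cortex label and 4.42% under the striatum label. The log2 ratio of AAV-VEGF-C over AAV-CTRL was -0.20 (-0.30 to -0.10) under the cortex label and -0.46 (-0.53 to -0.38) under the striatum label for Pdgfd, and -0.12 (-0.21 to -0.04) and -0.27 (-0.36 to -0.18) for Pdgfc. These 2 ligands were lower with AAV-VEGF-C under both labels, with intervals without 0. Under the striatum label the classes that held Pdgfd were smaller shares of the AAV-VEGF-C library, with astrocyte-like nuclei at 13.7% of nuclei in AAV-CTRL against 12.2% and fibroblast-like nuclei at 3.56 against 2.18%, and their part in the ratio was not tested. Pdgfa was at 0.08 (0.00 to 0.17) and 0.16 (0.08 to 0.23), higher under the striatum label. Pdgfb was lower under the cortex label alone, at -0.26 (-0.34 to -0.18) and 0.09 (-0.01 to 0.19), and the receptor Pdgfrb was at 0.05 (-0.06 to 0.15) and 0.00 (-0.10 to 0.10). For Pdgfra the ratios were -0.12 (-0.23 to -0.01) and 0.05 (-0.04 to 0.14). Intervals without 0 were common at this depth, with 31.2% of all genes under the cortex and 41.6% under the striatum label.

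In the vessel wall, the ligands and the receptor were compared class by class. Endothelial-like Pdgfb had a log2 ratio of -0.35 (-0.57 to -0.13) under the cortex label and -0.03 (-0.23 to 0.17) under the striatum label. Endothelial-like Pdgfd had -0.02 (-0.24 to 0.20) and -0.22 (-0.39 to -0.05). When each library was clustered on its own the cortex-label ratios were -1.5 for Pdgfb and -0.92 for Pdgfd, because 529 endothelial nuclei of cortex AAV-VEGF-C then formed a cluster named mixed endothelial and red blood cell. None of the 4 genes under the cortex label and the 5 under the striatum label that had at least 50 UMIs reached 1.5-fold in endothelial-like nuclei, beside 5.56 and 6.10% of all genes. Pericyte-like Pdgfrb gave 0.06 (-0.27 to 0.38) and -0.02 (-0.33 to 0.29), which bounds a difference between these libraries to less than 1.5-fold as far as counting error goes. It was the only member with 50 UMIs there, where 10.6 and 11.6% of genes were past the fold.

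In the venous endothelial-like cluster Pdgfb was at 191, 159.7, 162 and 72.7 CPM, with a striatum-label ratio of -1.15 (-1.94 to -0.40) from 23 against 46 UMIs in 32 and 48 nuclei. In the mixed endothelial and pericyte cluster Pdgfb had -0.30 (-0.52 to -0.09) and 0.43 (0.16 to 0.70), opposite in sign between the labels, Pdgfd -0.31 (-0.55 to -0.07) and -0.11 (-0.37 to 0.15), and Pdgfrb 0.12 (-0.06 to 0.31) and 0.11 (-0.08 to 0.30). Smooth muscle-like Pdgfrb had -0.55 (-0.98 to -0.11) and -0.04 (-0.37 to 0.29), the latter -0.74 after thinning. Among 5 members with enough UMIs in smooth muscle-like nuclei, none passed 1.5-fold under the cortex label and Pdgfb did under the striatum label, at -0.59 (-1.02 to -0.16), beside 15.3 and 11.6% of genes. In the same striatum-labelled nuclei the median endothelial marker stood at 66.3% of its endothelial-like level with AAV-CTRL and 52.1% with AAV-VEGF-C, where Pdgfb stood at 88.0 and 59.8%, and its part in the ratio was not tested.

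**Figure D4:**
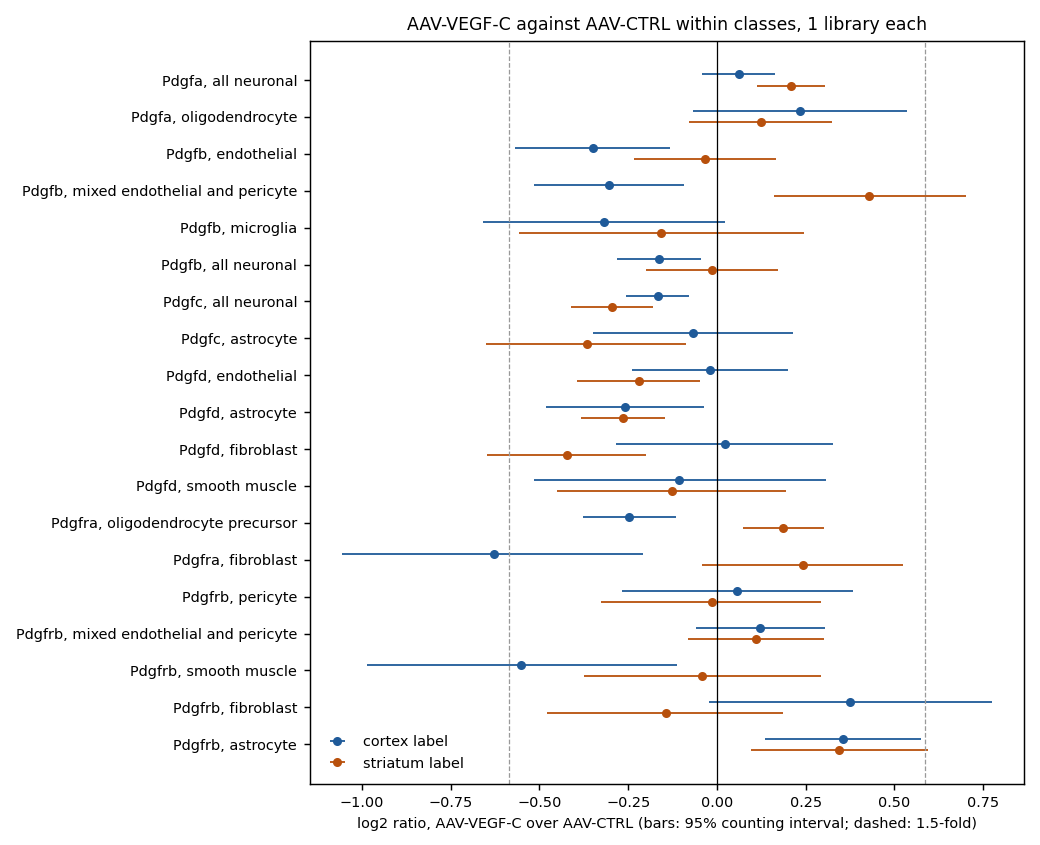
Log2 ratio of CPM, AAV-VEGF-C over AAV-CTRL, for each gene and class under the cortex label and the striatum label, with 95% exact conditional binomial intervals as bars over counting error only. Pdgfrb in astrocyte-like nuclei lies above 0 under both labels (0.36 and 0.35), and in pericyte-like nuclei its intervals include 0.

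In astrocyte-like nuclei the receptor gene Pdgfrb and the ligand gene Pdgfd each had the same direction under both region labels. Pdgfrb was higher with AAV-VEGF-C, at 0.36 (0.14 to 0.58) and 0.35 (0.10 to 0.59), and its ligand gene Pdgfd lower, at -0.26 (-0.48 to -0.04) and -0.27 (-0.38 to -0.15). Among all genes tested in these nuclei, 1.90% were higher and 1.36% lower under both labels with intervals without 0. None of the 6 members passed 1.5-fold, beside 2.84 and 3.72% of genes. Within the astrocyte-like cluster that held most cortex-labelled nuclei the Pdgfrb ratio was 0.35 (0.12 to 0.57), and within the one that held most striatum-labelled nuclei it was 0.49 (0.21 to 0.76). The same clusters gave -0.21 (-0.44 to 0.03) and -0.30 (-0.42 to -0.18) for Pdgfd.

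OPC-like Pdgfra, the receptor, went in opposite directions, with -0.25 (-0.38 to -0.12) under the cortex label and 0.19 (0.07 to 0.30) under the striatum label. The difference between the labels was not tested. Under the cortex label the ligand Pdgfa was the 1 of 3 members past 1.5-fold in OPC-like nuclei, at 0.93 (0.09 to 1.84) from 43 against 17 UMIs, beside 6.05% of genes, and under the striatum label Pdgfd was 1 of 4, at -0.67 (-1.37 to 0.01), beside 6.90%. In differentiating oligodendrocyte-like nuclei Pdgfa had 0.92 (0.21 to 1.67) and -0.12 (-0.69 to 0.45).

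Fibroblast-like Pdgfra was lower with AAV-VEGF-C under the cortex label, at -0.63 (-1.06 to -0.21), the 1 of 4 members past the fold there, beside 7.31% of genes. Under the striatum label it was 0.24 (-0.04 to 0.52), and none of 5 members was past the fold, beside 7.83%. Within cluster A alone the ratios were -0.47 (-0.92 to -0.03) and 0.40 (0.10 to 0.69). Fibroblast-like Pdgfrb was 0.38 (-0.02 to 0.77) and -0.14 (-0.48 to 0.19), and Pdgfd 0.02 (-0.28 to 0.33) and -0.42 (-0.65 to -0.20).

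In neuronal nuclei, Pdgfc was lower under both labels, at -0.17 (-0.26 to -0.08) and -0.30 (-0.41 to -0.18), as were 4.82% of genes with intervals without 0. Pdgfa was 0.06 (-0.04 to 0.16) and 0.21 (0.11 to 0.31), and Pdgfb -0.16 (-0.28 to -0.05) and -0.01 (-0.20 to 0.17). No member passed 1.5-fold in neuronal nuclei, beside 2.31 and 3.98% of genes. Microglia-like Pdgfb was -0.32 (-0.66 to 0.02) and -0.16 (-0.56 to 0.25), both intervals including 0.

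The striatum label was then set against the cortex label within each AAV group. With 2 libraries on each side the smallest exact permutation p (two-sided) is 0.333, so that ratios are given alone. In whole libraries Pdgfd was higher under the striatum label, at 1.11 (1.03 to 1.2) with AAV-CTRL and 0.86 (0.77 to 0.95) with AAV-VEGF-C, and Pdgfb lower, at -0.79 (-0.89 to -0.70) and -0.44 (-0.54 to -0.35). The log2 ratios were 0.43 (0.33 to 0.53) and 0.60 (0.50 to 0.70) for Pdgfra, 0.32 (0.24 to 0.41) and 0.40 (0.32 to 0.47) for Pdgfa, and -0.29 (-0.38 to -0.21) and -0.44 (-0.53 to -0.35) for Pdgfc. Past 1.5-fold were Pdgfb and Pdgfd with AAV-CTRL and Pdgfd and Pdgfra with AAV-VEGF-C, beside 28.1 and 28.4% of all genes. Pdgfrb was 0.19 (0.09 to 0.30) and 0.15 (0.05 to 0.25), and its sign with AAV-VEGF-C flipped when scaled by the median ratio over genes, which moved region ratios by 0.18 and 0.19.

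Within astrocyte-like nuclei the region ratio of Pdgfd was 1.54 (1.37 to 1.72) with AAV-CTRL and 1.54 (1.36 to 1.72) with AAV-VEGF-C, and that of Pdgfrb was -0.69 (-0.94 to -0.44) and -0.70 (-0.93 to -0.48). Pdgfd and Pdgfrb were thus on opposite sides. Pdgfd and Pdgfra were past 1.5-fold higher and Pdgfb and Pdgfrb lower in both AAV groups, 4 of 6 members beside 19.9 and 19.7% of genes. Pdgfb and Pdgfra were low here, however, near the level of reference classes. Over the 4 libraries Pdgfb was 10.6 CPM against 10.0 in oligodendrocyte-like nuclei, and Pdgfra 9.94 against 10.2 in microglia-like nuclei. Both genes were also past the fold in oligodendrocyte-like nuclei in both AAV groups, so their calls were not particular to astrocyte-like nuclei. Different clusters held these nuclei, a Gldc and Slc1a3 cluster most of the cortex-labelled and an Agt and Slc6a11 cluster most of the striatum-labelled ones. Within each library the first cluster had less Pdgfd than the second (log2 -1.35, -0.92, -0.99 and -1.09), with each interval below 0. For Pdgfrb the ratio was 1.05 (0.63 to 1.45) and 0.57 (0.00 to 1.09) in the striatum-labelled libraries, whereas in the cortex-labelled ones, with 8 and 11 UMIs in the second cluster, it was 0.66 (-0.34 to 1.89) and 0.52 (-0.33 to 1.53), intervals that include 0. Inside the clusters Pdgfd was higher under the striatum label as point values, at 87.4, 75.8, 148 and 112 CPM in the first and 223, 143, 293 and 238 in the second. The cortex-labelled values of the second came from 35 and 22 UMIs, and no region ratio with an interval was taken inside a cluster. Pdgfrb in the first cluster was 80.5, 102, 88.1 and 88.6 CPM.

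Pericyte-like Pdgfrb gave a region ratio of 0.03 (-0.27 to 0.34) with AAV-CTRL and -0.04 (-0.37 to 0.29) with AAV-VEGF-C. Endothelial-like Pdgfb was -0.47 (-0.67 to -0.27) with AAV-CTRL and -0.15 (-0.37 to 0.06) with AAV-VEGF-C, and endothelial-like Pdgfrb 0.67 (0.18 to 1.17) and 0.70 (0.23 to 1.18). Pdgfra and Pdgfrb were the 2 of 5 members past the fold in endothelial-like nuclei in both AAV groups, beside 17.8 and 19.0% of genes, and these nuclei were mostly cluster C under the striatum and cluster D under the cortex label. The pericyte markers in endothelial-like nuclei were at medians of 8.02, 5.49, 8.94 and 11.1% of their pericyte-like level, and the fibroblast markers at 2.04, 5.13, 8.40 and 12.5% of their fibroblast-like level. In the venous cluster the medians for the fibroblast markers were 8.90, 18.5, 36.4 and 54.4%, higher in both striatum-labelled libraries. Without the venous cluster, an alternative chosen after seeing the data, the region ratio of Pdgfrb was 0.26 (-0.43 to 0.97) with AAV-CTRL and -0.14 (-0.77 to 0.49) with AAV-VEGF-C. That of Pdgfra was 0.26 (-0.64 to 1.21) and 1.35 (0.07 to 2.82), the latter from 22 against 7 UMIs. Neither Pdgfrb ratio was past the fold. In both AAV groups Pdgfra had fewer UMIs than the minimum set for counting a gene as past the fold. Neuronal Pdgfb was -1.17 (-1.32 to -1.01) and -1.02 (-1.17 to -0.86), and excitatory neuron-like nuclei, its highest neuronal holders, numbered 6371, 7456, 288 and 96. Fibroblast-like Pdgfrb was -0.10 (-0.44 to 0.25) and -0.62 (-1.0 to -0.23), and fibroblast-like Pdgfra -0.29 (-0.59 to 0.02) and 0.58 (0.18 to 0.99). OPC-like Pdgfra was -0.17 (-0.30 to -0.05) and 0.26 (0.14 to 0.38), of opposite sign between the AAV groups.

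Among neuronal clusters with libraries of at least 100 nuclei, named by their leading genes, Pdgfc ranged most. Over the 4 libraries it was 77.9 (71.6 to 84.5) CPM in the excitatory Igfn1 and Fam19a2 cluster and 61.1 (56.4 to 66.0) in the Gm48530 and Igfn1 cluster. It was lowest in Vip/Lamp5 interneuron-like nuclei, at 8.71 (5.84 to 12.5) CPM. Pdgfb was 40.3 (30.4 to 52.3) CPM in the excitatory Ntng2 and Nr4a2 cluster and 10.6 (8.32 to 13.3) in Sst/Pvalb interneuron-like nuclei. Pdgfa was 70.2 (62.9 to 78.0) CPM in the subcortical glutamatergic cluster led by Oxt and Pmch and 21.6 (19.4 to 24.0) in the main striatal projection neuron-like cluster. Each excitatory cluster thus held more Pdgfc and Pdgfb than both interneuron-like clusters over the 4 libraries, whereas Pdgfa followed a different order.

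**Figure D5:**
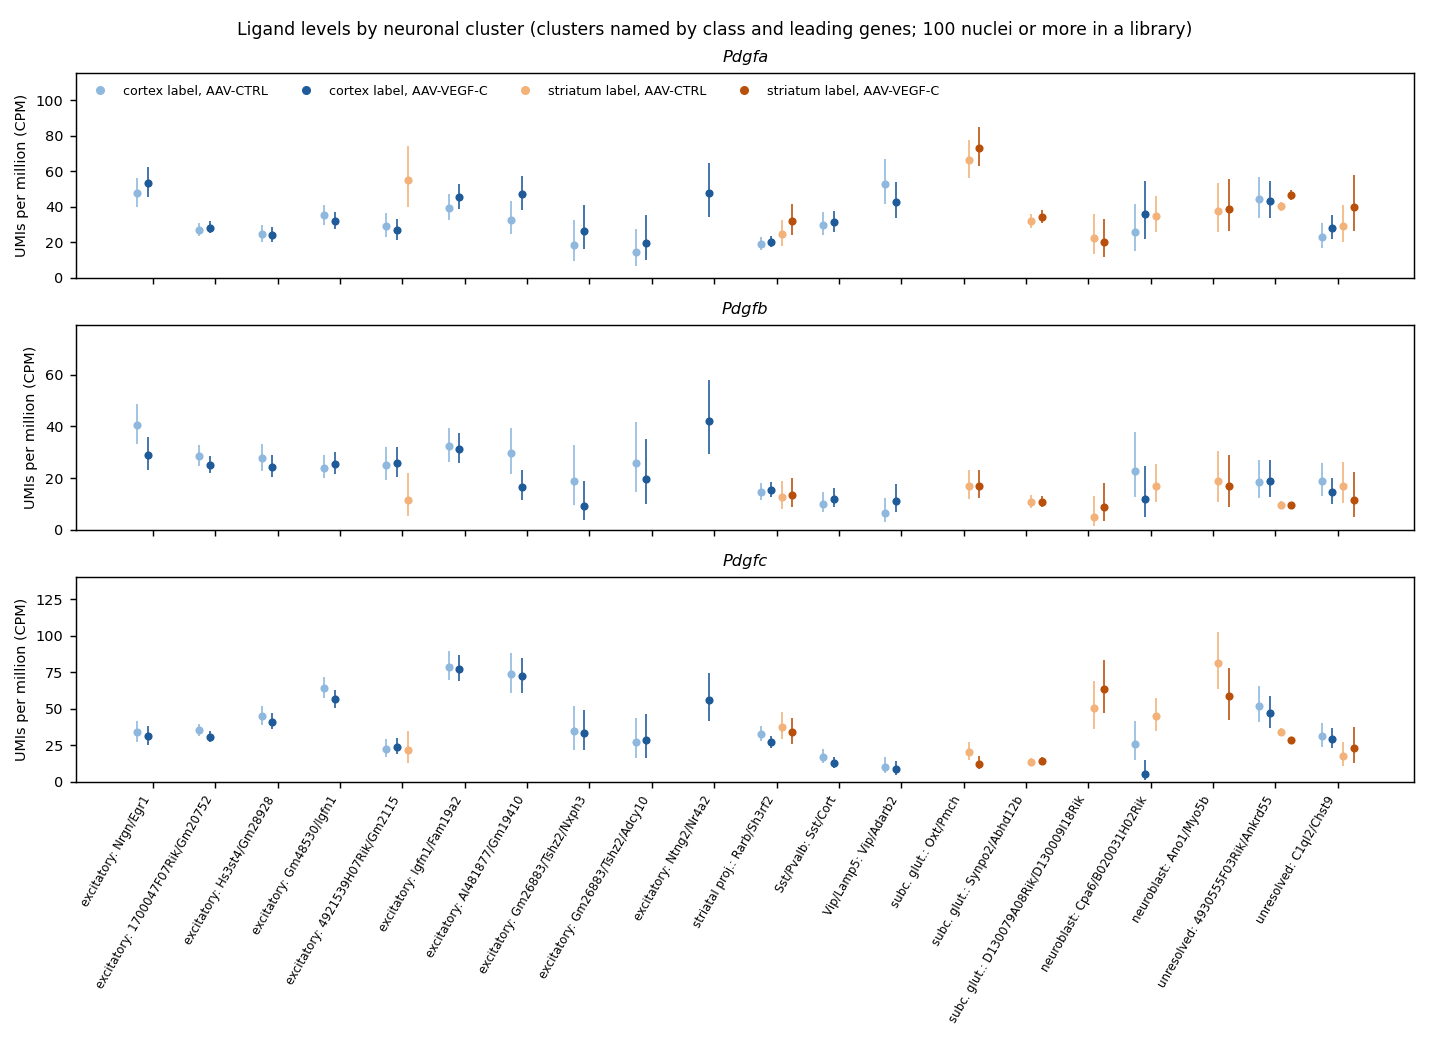
Levels (CPM) of Pdgfa, Pdgfb and Pdgfc in the neuronal clusters shown by library, for libraries with at least 100 nuclei in the cluster, with 95% exact Poisson intervals as bars. Over the 4 libraries together Pdgfc is at 8.71 CPM in Vip/Lamp5 interneuron-like nuclei and at 77.9 CPM in the excitatory Igfn1 and Fam19a2 cluster.

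The wider PDGF pathway was read from a list of 59 genes: 9 for activation and extracellular handling, 30 adaptors and signal relays, 12 inhibitors and 8 immediate targets. In whole libraries 0 were at least 1.5-fold higher and 1 lower with AAV-VEGF-C under each label, namely Klf4, an immediate early transcription factor (-0.59, cortex), and Plau, the urokinase-type activator (-0.67, striatum), beside 2.44 and 4.42% of all genes past the fold either way. The median log2 ratio of the list was -0.04 under both labels, beside -0.01 and 0.00 for all genes. Between region labels 9 of 59 were higher and 5 lower with AAV-CTRL, and 8 higher and 6 lower with AAV-VEGF-C, with medians of 0.14 and 0.11 beside 0.19 and 0.20 for all genes. Of all genes, 19.2% were higher and 8.95% lower with AAV-CTRL, and 19.6% higher and 8.75% lower with AAV-VEGF-C.

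Class by class, the genes of this list past 1.5-fold are named after their values were seen, and each is a log2 ratio of AAV-VEGF-C over AAV-CTRL with no error but counting. The shares of all genes past the fold in the same nuclei, in either direction, are given beside the counts with the cortex label first. In endothelial-like nuclei 0 of 49 were higher and 2 lower under the cortex label, the receptor phosphatase gene Ptprj (-0.67) and Klf4 (-0.59), beside 5.56% of all genes. Under the striatum label 1 of 52 was lower, the phosphatase gene Ptpn1 (-0.60), beside 3.27% of all genes lower. In pericyte-like nuclei 2 of 12 were higher and 0 lower under the cortex label, Hras (1.05) and the PI3-kinase subunit Pik3r1 (0.68), and under the striatum label 1 of 14 was higher, Pik3ca (0.71), and 1 lower, the plasminogen activator Plat (-1.25). Of all genes, 10.6 and 11.6% were past the fold there. Few members of the list had enough UMIs in pericyte-like nuclei, and the genes differed between the labels.

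In OPC-like nuclei 2 of 45 were higher under the cortex label, the convertase Pcsk5 (0.62) and the adaptor Crkl (0.93), and 2 lower, the adaptor Nck2 (-0.67) and the ERK phosphatase Dusp6 (-0.64). Under the striatum label 1 of 45 was higher, Hras (0.69), and 0 lower, beside 6.05 and 6.90% of all genes. In fibroblast-like nuclei 0 of 48 were higher and 2 lower under the cortex label, Pik3cb and Ptpn2 (both -0.68), and 1 of 49 was higher and 0 lower under the striatum label, Jun (0.66), beside 7.31 and 7.83% of all genes. In astrocyte-like nuclei 0 of 52 were higher and 1 lower, Plat (-0.86), then 0 of 53 either way, beside 2.84 and 3.72% of all genes. In neuronal nuclei 2 of 58 were higher, Hspg2 (0.67) and Myc (0.61), and 0 lower, then 0 of 58 either way, beside 2.31 and 3.98% of all genes.

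In smooth muscle-like nuclei, the vascular class with the fewest nuclei, 4 of 36 were higher and 6 lower under the cortex label, and 1 of 41 was higher and 3 lower under the striatum label. Of all genes in these nuclei, 9.34% were higher and 6.01% lower under the cortex label, and 5.68% higher and 5.87% lower under the striatum label. There 2 genes passed the fold the same way under both labels: Hspg2, which encodes the heparan sulphate proteoglycan perlecan, at 1.23 and 0.70, and Klf4, at -0.71 and -0.59. Of all genes, 1.15% were higher and 0.651% lower past the fold under both labels. The Hspg2 ratios came from 45 against 10 and 79 against 39 UMIs, and those of Klf4 from 67 against 57 and 79 against 96 UMIs. No other gene of the list met this in any of the classes compared. Rasa1, a Ras inhibitor, was 0.94 under the cortex label and -0.67 under the striatum label.

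The genes most like each member were found from the correlation of log2(CPM + 1) across 31 classes, among 15246 genes. The classes share libraries and differ in depth, so the values are descriptive. For Pdgfb they were Arap3 (Pearson's r 0.91), Egfl7 (0.89) and Srsf9 (0.88). For Pdgfrb they were Eva1b (0.92), Cd248 (0.90) and Nbl1 (0.89), and for Pdgfd Acacb (0.91), Smad6 (0.90) and Lamb2 (0.90). For Pdgfra they were Bmp7 (0.76), Mmp2 (0.75) and Prrx1 (0.74), for Pdgfa Fam161a (0.77), Ppfibp2 (0.75) and Erlin2 (0.74), and for Pdgfc Reps1 (0.79), Chmp4c (0.79) and Gm16000 (0.76). Between members, the correlation was 0.81 for Pdgfd and Pdgfrb, 0.56 for Pdgfb and Pdgfrb, and -0.55 for Pdgfb and Pdgfc.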

How the data were processed

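Nuclei from pooled brains were profiled with droplet-based 3′ chemistry (10x Genomics, v3) in 4 libraries. The authors deposited raw UMI counts per gene and nucleus, with no normalization; the file header names cellranger 5.0.1, while the submitters' processing notes name Cell Ranger 5.1.1 and mm10. Neither the annotation nor the handling of intronic reads is given in the sources used here. Per the study's methods nuclei under 200 UMIs were discarded. Clusters with low average counts, attributed to debris, doublets or multiplets and dead cells, were then removed. The number of nuclei that the study gives after these steps equals the number deposited.

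From the counts, doublets were called with Scrublet (scanpy 1.11.5, expected rate 8%). Nuclei of the 4 libraries were clustered together (5000 variable genes without the 6 PDGF genes, 50 principal components, 15 neighbours, Leiden 0.10.2 at a resolution of 1.2), and vascular and immune clusters again at 0.8 (3000 genes). Clusters with at least 40% doublet calls and called doublets were left out, and 72936 of 78728 nuclei were kept. A cluster was named when at least 3 and at least 35% of the markers of a class were at least 2-fold over the median cluster in at least 10% of nuclei. An unnamed cluster was called unresolved neuron when no non-neuronal marker was among its leading genes and its pan-neuronal genes were not far below the median cluster. In the clusters so called, pan-neuronal genes were at 2.37 and 1.18 times the median cluster. A cluster led by at least 3 genes of another class was called mixed. The rule was chosen after the clusters were seen, so a difference from the study can come from the names rebuilt here.

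UMIs were summed per class and library and scaled to CPM. Levels have exact Poisson, shares exact binomial (Clopper-Pearson) and ratios exact conditional binomial intervals at 95%. No test was run, since each group is 1 library and nuclei are not replicates. Genes with at least 50 UMIs over both libraries counted as past the fold at 1.5 (0.58 on the log2 scale). Shares were repeated after thinning to 1000 UMIs, without the 636, 703, 1492 and 425 nuclei below that depth. The PDGF genes, the marker lists and the pathway list were chosen with earlier results of these data known. Named beside the members are the 3 genes most correlated with each, among genes with at least 500 UMIs and classes with at least 50 nuclei, and pathway genes past the fold the same way under both region labels. A neuronal cluster and a pathway gene are not reported here. The ratio, its interval and the thinning were checked on simulated Poisson counts, which carry only the counting error that the interval assumes. Doublet calling, clustering and naming were not simulated. Alternatives were other scaling, thinning, a depth minimum, doublets kept, each library clustered alone, the 6 genes allowed in clustering, other UMI minimums and, chosen after seeing the data, the largest cluster of a class alone, the mixed cluster counted as pericyte-like and the venous endothelial-like cluster left out.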

Additional observations from a re-analysis of the deposited data

Results flagged for a closer look

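For 3 results by class the interval of the AAV-VEGF-C over AAV-CTRL ratio lay on opposite sides of 0 under the cortex and striatum labels. Each rests on 1 library per group, and the difference between the labels was not tested. The share of all genes with intervals on opposite sides was not counted, so these 3 results have no background to compare with. In whole libraries 31.2% of all genes under the cortex label and 41.6% under the striatum label had intervals without 0.

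Pdgfra in OPC-like nuclei was -0.25 (-0.38 to -0.12) on the log2 scale under the cortex label and 0.19 (0.07 to 0.30) under the striatum label. Pdgfb in the mixed endothelial and pericyte cluster was -0.30 (-0.52 to -0.09) and 0.43 (0.16 to 0.70). Pdgfb in excitatory neuron-like nuclei was -0.20 (-0.33 to -0.07) and 0.99 (0.17 to 1.79), the latter from 25 against 32 UMIs in 96 and 288 nuclei. Within fibroblast-like cluster A, Pdgfra was likewise on opposite sides, at -0.47 (-0.92 to -0.03) and 0.40 (0.10 to 0.69).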

How the results depend on the processing

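No paired analysis was possible because the AAV groups were separate pools of mice with 1 library per region and no replicate numbers, and no library could be left out. Cortex and striatum of an AAV group shared a pool, so the region ratios were taken within pools, where an exact sign-flip test over 2 pools cannot go below p = 0.5 (two-sided). Without the venous endothelial-like cluster (chosen after seeing the data) the region ratio of endothelial-like Pdgfrb with AAV-VEGF-C reversed to -0.14, and the other 3 endothelial receptor ratios stayed within their counting intervals. Of 60 values recomputed in nuclei with at least 1000 UMIs, all 60 moved by less than their counting interval, as did all 16 in the largest cluster of a class alone and both with the mixed cluster counted as pericyte-like (the last 2 chosen after seeing the data). Scaling by the median ratio over genes moved 13 of 66 values and reversed 1. It gave region ratios (AAV-CTRL, then AAV-VEGF-C) of 0.14 and 0.21 for Pdgfa, -0.97 and -0.63 for Pdgfb, -0.47 and -0.63 for Pdgfc, 0.93 and 0.67 for Pdgfd, 0.25 and 0.41 for Pdgfra and 0.0150 and -0.0376 for Pdgfrb, the last one reversed. Thinning to 1000 UMIs moved 14 of 60 and reversed 1. Its whole-library region ratios were -0.29 for Pdgfb, -0.28 for Pdgfc, 0.70 for Pdgfd, 0.45 for Pdgfra and -0.0594 for Pdgfrb (reversed) with AAV-VEGF-C, and -0.0670 for Pdgfc and 0.28 for Pdgfra with AAV-CTRL. Its striatum-label AAV ratios were -0.58 for Pdgfd and -0.12 for Pdgfrb in whole libraries, 0.31 for Pdgfa and 0.22 for Pdgfb in neuronal, -0.44 for Pdgfd in astrocyte-like, 0.61 for Pdgfra in fibroblast-like and -0.74 for Pdgfrb in smooth muscle-like nuclei, and the region ratio of astrocyte-like Pdgfd with AAV-VEGF-C was 1.25. The cause was not tested.

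Clustering each library on its own moved 6 of 40 values. Endothelial-like AAV ratios under the cortex label became -1.5 for Pdgfb and -0.92 for Pdgfd, and the region ratio of Pdgfb with AAV-VEGF-C 1.27, because the main endothelial cluster of cortex AAV-VEGF-C, 529 nuclei, was then named mixed endothelial and red blood cell. Striatum AAV-CTRL then had no pericyte-like class and gave no value for it. Over the 4 libraries together, shares of UMIs with no doublets left out were 59.9% for neuronal Pdgfa, 17.5% for endothelial-like Pdgfb, 67.7% for neuronal Pdgfc, 28.1% for astrocyte-like Pdgfd, 57.5% for OPC-like Pdgfra and 42.8% for Pdgfrb in pericyte-like, smooth muscle-like and mixed nuclei. With libraries clustered alone they were 59.4% for Pdgfa, 68.8% for Pdgfc and 38.6% for Pdgfrb, and with the 6 genes allowed in clustering (this share chosen after seeing the data) 60.5% for Pdgfra and 45.8% for Pdgfrb. Pathway genes past the fold were 0 under the cortex label with median-ratio scaling and 0 under the striatum label with at least 200 UMIs in whole libraries. In endothelial-like nuclei they were 5 under the cortex and 6 under the striatum label with 1 UMI in each library, 1 under the cortex label with median-ratio scaling and 1 under the striatum label with at least 200 UMIs. Depth limits classes of few nuclei, such as pericyte-like nuclei, where Pdgfrb was the only member with 50 UMIs.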

Other observations

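Cells at the ventricle and border macrophages also carried PDGF ligand genes. In choroid plexus-like nuclei (95, 130, 122 and 70 nuclei) the log2 ratio of Pdgfd, AAV-VEGF-C over AAV-CTRL, was 0.14 (-0.27 to 0.55) under the cortex label and -0.83 (-1.28 to -0.41) under the striatum label. In ependymal-like nuclei Pdgfc was 13.5, 29.2, 71.5 and 84.4 CPM and Pdgfa 98.4, 61.0, 95.7 and 87.1 CPM in the same order of libraries as in the report. Macrophage-like nuclei, led by Mrc1, held Pdgfc at 60.9 (41.7 to 86.0) and Pdgfb at 57.1 (38.5 to 81.5) CPM over the 4 libraries, against 8.41 (5.63 to 12.1) and 147 (134 to 160.2) CPM in microglia-like nuclei. Macrophage-like nuclei thus held more Pdgfc and less Pdgfb than microglia-like nuclei, with intervals that did not overlap.

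Within the oligodendrocyte lineage, Pdgfc separated 2 oligodendrocyte-like clusters. The log2 ratio of the large cluster over the cluster led by A330049N07Rik and Anln was 2.43 (1.46 to 3.59) in striatum AAV-CTRL and 1.34 (0.72 to 2.01) in striatum AAV-VEGF-C. In endothelial-like nuclei a UMI of both Pdgfb and Pdgfd was found in 14.7, 13.5, 12.8 and 16.7% of nuclei, and in astrocyte-like nuclei the ligand Pdgfd and the receptor Pdgfrb were found together in 1.83, 2.21, 2.86 and 3.28%.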
